A study of Mus musculus with 4 samples.

Results

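Pancreatic beta cells release insulin through a chain that a handful of membrane proteins control. The KATP channel, built of the pore Kir6.2 (Kcnj11) and the sulfonylurea receptor SUR1 (Abcc8), closes when glucose metabolism raises ATP, and the cell then depolarises and secretes. The receptors for GLP-1 (Glp1r) and GIP (Gipr) raise cAMP and amplify that secretion, the fatty acid receptor GPR40 (Ffar1) amplifies it through Gq and calcium stores, and the alpha2A-adrenergic receptor (Adra2a) restrains it through Gi.

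These 6 genes were chosen by name from the 30905 genes listed in single-cell RNA libraries of mouse pancreatic islet cells, and each had 1 identifier in the files. The study has 4 libraries, 1 for each group. Late db/db with intervention, hereafter the intervention library, late db/db and normal control came from mice of 98 days, and early db/db came from mice of 70 days. The genotype label of each sample, the control too, is db/db(C57BL/KsJ), whereas the growth protocol names male C57BL/6 mice beside the db/db mice. The db/db mouse lacks the long leptin receptor and becomes obese and diabetic, and the protocol has the db/db mice kept until their glucose was high. What the intervention consisted of, and how many mice each library pooled, are not given in the sources used here. The matrix deposited for early db/db is named as if it were a further control, and its sample label decided the group here. With 1 library per group no test between groups was possible, so each difference compares libraries, library and group cannot be told apart, and every interval covers counting error only.

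Cells were classed by the share of their UMIs (unique molecular identifiers, counts of captured transcripts) that came from hormone genes: insulin for beta, glucagon for alpha and somatostatin for delta cells. Beta cells numbered 3222 in the intervention library, 743 in the late db/db library, 1522 in early db/db and 2294 in normal control. Alpha cells numbered 530, 133, 757 and 1049 in the same order, and delta cells 157, 91, 191 and 271. Markers that the rule did not use fitted these names: in each library 6 or more of 8 beta markers were highest in beta cells, 6 of 7 alpha markers in alpha cells and at least 3 of 5 delta markers in delta cells. Total depth ran from 120934779 to 166034254 UMIs per library, and between 8 and 21 cell barcodes were shared by any 2 libraries. Beta cells of late db/db were the deepest, with a median of 88531 UMIs per cell, against 41946.5 in the intervention library, 56463 in early db/db and 49611.5 in normal control. Levels are given in CPM, the summed UMIs of a gene per 1000000 UMIs of the class, leaving out the mitochondrial genes and 7 hormone genes. This denominator matters, because insulin made up a median of 47.4% of a beta cell's UMIs in the intervention library, 43.2% in late db/db and 49.4% in early db/db, against 64.0% in normal control. Alpha markers in beta cells stood at 7628 per 1000000 UMIs in the intervention library, 5082 in late db/db and 4944 in early db/db, against 1098 in normal control. In each db/db library 1 of the 7 alpha markers was highest in beta cells. Duct markers also differed in beta cells, with 250 per 1000000 UMIs in the intervention library, 215 in late db/db and 254 in early db/db, against 58.9 in normal control. Acinar markers stood at 222 per 1000000 UMIs in early db/db beta cells, and at 11.7 in the intervention library, 41.2 in late db/db and 17.2 in normal control. The part of these marker differences, or of such cells, in the levels was not tested.

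Beta cells of all 3 db/db libraries carried less Gipr, Ffar1 and Kcnj11 than those of the control, whereas Abcc8 and Adra2a stayed nearer to the bulk of genes and Glp1r was too sparse to enter. Gipr was 4.65-fold lower in late db/db than in normal control, Ffar1 3.34-fold and Kcnj11 2.30-fold. Over all beta cells, the intervention library lay between late db/db and normal control for Gipr, Ffar1 and Kcnj11. In the intervention library Ffar1 was the member furthest above late db/db, at 1.93-fold. Among beta cells of 20000 to 40000 UMIs outside the hormone and mitochondrial genes, Kcnj11 was 29.0 CPM there and 29.1 CPM in late db/db. Genes were compared where the higher of the 2 libraries reached 10 CPM and both together held 50 UMIs, and a gene is called apart at 2-fold or more. Of the 5 members that entered in beta cells, 3 were lower and 0 higher in late db/db against normal control, where 12.9% of the 9396 genes compared were lower and 4.16% higher. Early db/db against normal control also had 3 lower, with 18.8% of all genes lower and 4.89% higher, and the intervention library against normal control had 1 lower, Gipr, with 8.92% of all genes lower and 4.12% higher. These 3 comparisons share the control library. None of the 5 was 2-fold apart between late and early db/db, where 0.595% of all genes were lower and 0.35% higher. None was 2-fold apart between the intervention library and late db/db, where 0.694% were lower and 1.24% higher. The median of all genes stood at −0.39 on the log2 scale in late db/db against normal control, −0.38 in early db/db and −0.37 in the intervention library. Relative to that median, late db/db kept 2 members at 2-fold, because Kcnj11 came to −0.82. The balance of all genes depends on the denominator: higher genes were 24.4% of those apart in late db/db against normal control, 81.8% when all UMIs formed the denominator and 53.6% under TMM factors.

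**Figure D1:**
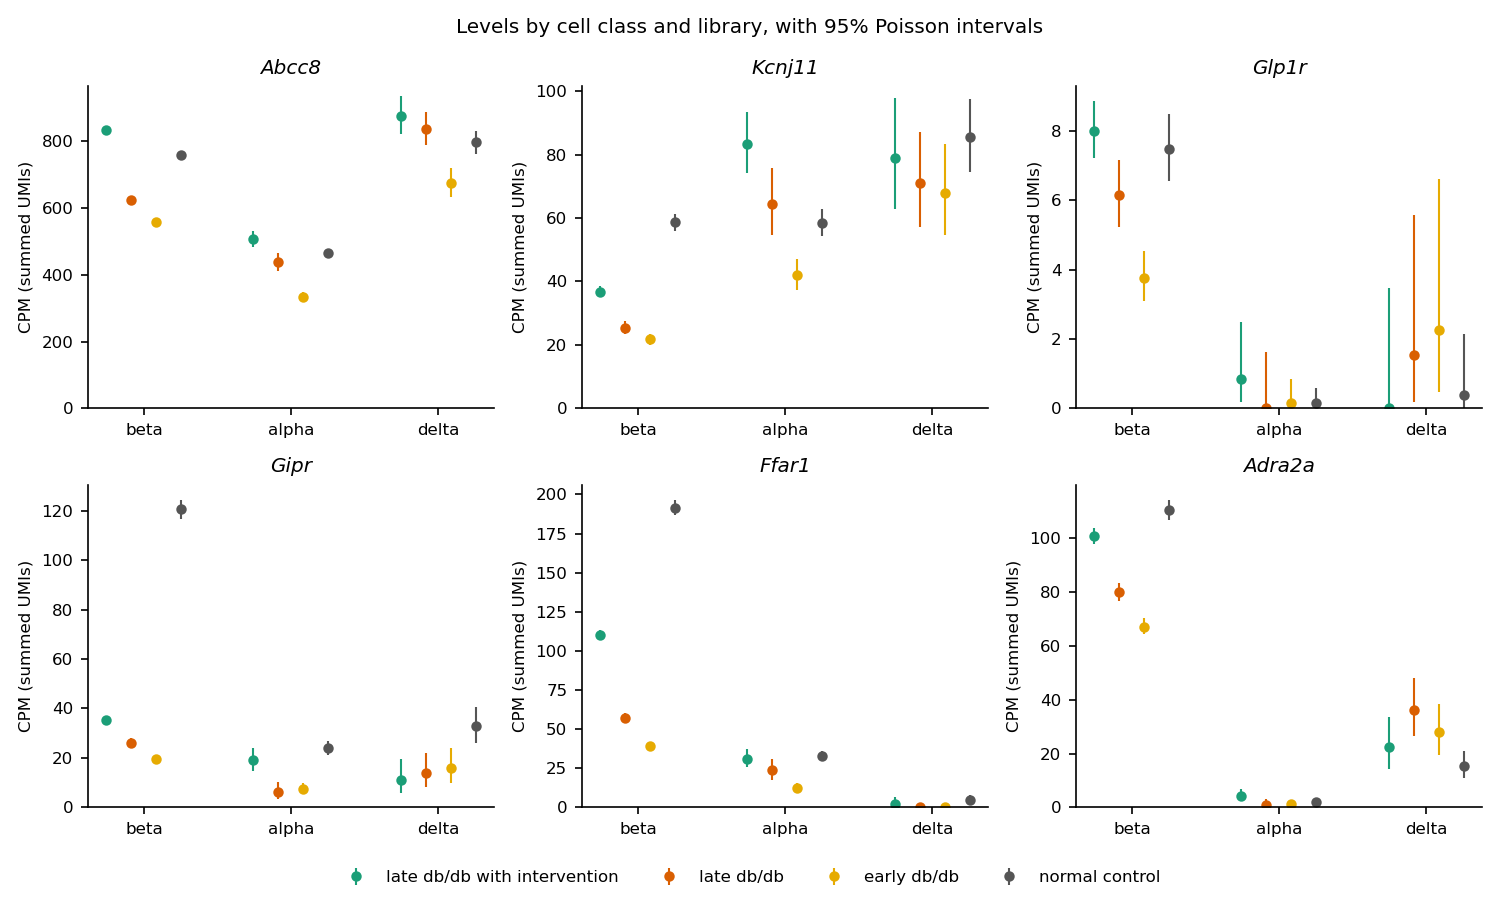
Level of each gene (CPM of summed UMIs, linear axes that start at 0) in beta, alpha and delta cells; points are the 4 libraries in the order of the legend, and bars are exact 95% Poisson intervals. In beta cells the control stands apart from the 3 db/db libraries for Gipr, at 120 CPM, and for Ffar1, at 191 CPM, while Abcc8 lies between 559 and 833 CPM in all 4.

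**Figure D2:**
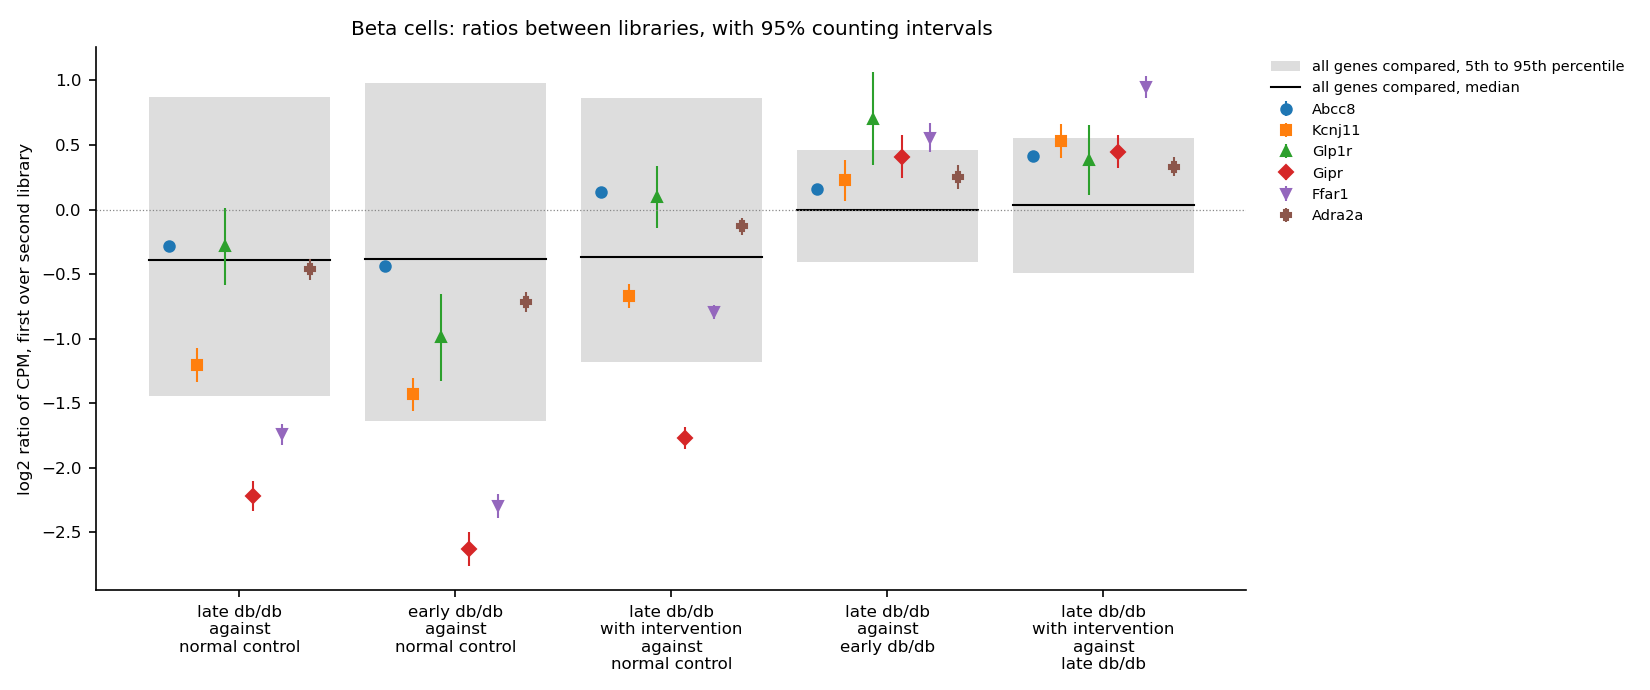
Log2 ratio of CPM in beta cells for 5 comparisons of libraries (first over second); symbols are the 6 genes with 95% counting intervals, and grey boxes span the 5th to 95th percentile of all genes compared, with their median as a black line. Gipr and Ffar1 lie under the box in late and early db/db against normal control, and Ffar1 lies over it in the intervention library against late db/db; the ratios of Abcc8 and Glp1r in late db/db against normal control change sign with all UMIs or with TMM factors, that of Adra2a there with all UMIs, and that of Adra2a in the intervention library against normal control with both.

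The regulatory subunit of the channel, Abcc8, differed little. The gene lies at chr7:46104523-46180033 on the minus strand of GRCm38 and has up to 39 exons in a transcript. Its level in beta cells was 833 CPM in the intervention library, 624 CPM in late db/db and 559 CPM in early db/db, against 759 CPM in normal control. The 4 libraries thus stayed within a narrow range, with early db/db lowest and the intervention library highest. The log2 ratio to normal control was −0.28 in late db/db (95% interval −0.31 to −0.25), which becomes 0.32 with all UMIs and 0.03 with TMM factors. In early db/db it was −0.44 and in the intervention library 0.13. The intervention library was 1.33-fold above late db/db. After each cell was thinned to 2000 UMIs outside the hormone and mitochondrial genes, 78.8% of beta cells in the intervention library held an Abcc8 UMI, 69.8% in late db/db and 65.0% in early db/db, against 75.8% in normal control. Without thinning these shares were 97.1%, 93.7%, 90.8% and 97.0%. Thinning to 3000 UMIs of all genes, insulin included, put late db/db above the control: 60.5% in the intervention library, 52.9% in late db/db and 41.9% in early db/db, against 46.3% in normal control. By that thinning all 3 db/db libraries stayed under the control for Kcnj11, Gipr and Ffar1. After thinning to 2000 UMIs, immune cells gave 12.9% in the intervention library, 2.05% in late db/db and 2.90% in early db/db, against 6.45% in normal control. The beta cell shares stood far above these. The kind of immune cell differed: macrophages were 80 of 92 in the intervention library and 80 of 98 in normal control. Late db/db had 1907 B cells, 2051 T cells and 152 macrophages, and early db/db 260, 82 and 187. For every member, immune shares are therefore not alike in make-up between libraries. Immune cells also carried beta markers, at 94209 per 1000000 UMIs in the intervention library, beside 124391 in its beta cells. The immune cells of late db/db had 7258 and those of early db/db 25654, against 7240 in normal control. The part of beta cell RNA in the immune shares was not tested. The 10th percentile of single beta cells was 377 CPM of Abcc8 in the intervention library, 250 CPM in late db/db and 89.3 CPM in early db/db, against 338 CPM in normal control. An uncharacterised transcript on the same strand, Gm45487, overlaps the gene, and its reads cannot be told apart.

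The pore gene Kcnj11 went another way. It lies at chr7:46093953-46100764, 3758 bases downstream of Abcc8 on the same strand, with up to 3 exons in a transcript. In beta cells it reached 36.8 CPM in the intervention library, 25.4 CPM in late db/db and 21.7 CPM in early db/db, against 58.6 CPM in normal control. Every db/db library was below the control, and late and early db/db lay close together. The log2 ratio to normal control was −1.20 in late db/db (−1.33 to −1.08), −1.43 in early db/db (−1.56 to −1.30) and −0.67 in the intervention library (−0.77 to −0.58). In late db/db the ratio eased to −0.60 with all UMIs and −0.89 with TMM factors, so its 2-fold call there depended on the denominator, while early db/db stayed at −1.02 or lower. The thinned share of beta cells with a Kcnj11 UMI was 7.89% in the intervention library, 4.98% in late db/db and 4.72% in early db/db, against 10.4% in normal control. Immune cells held it in 1.18%, 0.125% and 0.446% of cells, against 1.08% in normal control. Without thinning the beta cell shares were 37.6% in the intervention library, 50.6% in late db/db and 32.3% in early db/db, against 51.3% in normal control. Unthinned shares rise with depth, and late db/db cells were the deepest.

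Because the subunits moved unequally, the count of Abcc8 UMIs per Kcnj11 UMI in beta cells was 22.6 in the intervention library, 24.5 in late db/db (22.7 to 26.6) and 25.7 in early db/db, against 12.9 in normal control (12.4 to 13.6). This quotient does not depend on any denominator. It describes counts from the 3′ ends of transcripts and not the make-up of the channel. In alpha cells it was 6.09 in the intervention library, 6.79 in late db/db and 7.94 in early db/db, against 7.94 in normal control, and in delta cells 11.1, 11.8 and 9.94, against 9.33. The counting intervals of db/db libraries and control overlapped in delta cells, and in alpha cells of late and early db/db. They did not overlap in beta cells, or in alpha cells of the intervention library.

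Of the incretin receptors, Glp1r was sparsely counted. It lies at chr17:30901817-30940791 on the plus strand, with up to 14 exons. Beta cells held 373 Glp1r UMIs in the intervention library, 159 in late db/db and 110 in early db/db, against 243 in normal control. These counts correspond to 7.99 CPM, 6.14 CPM and 3.77 CPM, against 7.47 CPM, all under the 10 CPM minimum. Early db/db was the low library, with a log2 ratio to normal control of −0.99 (−1.33 to −0.66) that moved to −0.58 with all UMIs. In late db/db the interval of the ratio, −0.58 to 0.01, included 0, and in the intervention library so did −0.14 to 0.34. After thinning, 1.803% of beta cells in the intervention library held a Glp1r UMI, 0.968% in late db/db and 1.06% in early db/db, against 1.88% in normal control. These shares are near that of a single UMI per cell and no order was read from them. No thinned immune or endothelial cell of any library held a Glp1r UMI, which in the 4005 late db/db immune cells allows a share of cells with a UMI of up to 0.0749% at that depth. Without thinning 6 of 4114 of these cells held one (0.146%).

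Gipr, the GIP receptor, showed the deepest difference from normal control of the 6 in beta cells. It lies at chr7:19156061-19166127 on the minus strand, with up to 14 exons in a transcript. Beta cells carried 35.3 CPM in the intervention library, 25.9 CPM in late db/db and 19.5 CPM in early db/db, against 120 CPM in normal control. No db/db library came near the control, and the intervention library was 1.36-fold above late db/db. The log2 ratio to normal control was −2.22 in late db/db (−2.34 to −2.10), −2.63 in early db/db (−2.76 to −2.50) and −1.77 in the intervention library (−1.85 to −1.69). With all UMIs it was −1.61 in late db/db, so the call held. The shares of cells ran the same way: after thinning, 7.21% of beta cells held a Gipr UMI in the intervention library, 4.70% in late db/db and 3.45% in early db/db, against 21.5% in normal control. Without thinning the shares were 36.2%, 54.2% and 28.6%, against 75.6%. Immune cells gave 3.53% in the intervention library and 0.0999% in late db/db, with 0.446% in early db/db, against 1.08% in normal control.

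Ffar1 had the largest ratio of the 6 between the intervention library and late db/db in beta cells. It is a single-exon gene at chr7:30857390-30861564 on the minus strand and is the receptor through which long-chain fatty acids potentiate secretion. Its level in beta cells was 110 CPM in the intervention library, 57.2 CPM in late db/db and 39.0 CPM in early db/db, against 191 CPM in normal control. The 4 libraries did not overlap within counting error. Ratios to normal control on the log2 scale were −1.74 in late db/db (−1.82 to −1.66), −2.30 in early db/db (−2.39 to −2.21) and −0.79 in the intervention library (−0.85 to −0.74). The intervention library exceeded late db/db by 0.95 (0.86 to 1.03), and 98.6% of the genes compared had a lower ratio than Ffar1. Late db/db exceeded early db/db by 0.56 (0.44 to 0.67), where the sparse Glp1r was at 0.70 (0.34 to 1.07). Thinned shares of beta cells with a UMI were 20.5% in the intervention library, 11.5% in late db/db and 6.55% in early db/db, against 32.8% in normal control, and unthinned shares were 67.2%, 67.8% and 43.7%, against 85.3%. Thinned immune cells gave 1.18% in the intervention library, 4.47% in late db/db and 2.23% in early db/db, against 3.23% in normal control. In late db/db, B cells held 346 of the 403 Ffar1 UMIs of immune cells.

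The promoter of Ffar1 is shown because its beta cell level moved furthest between libraries among the 3 members with a RefSeq promoter, and that of Adra2a because that gene moved little. The sequences run from 250 bases before to 50 bases after the RefSeq start in GRCm38.p6, 5′ to 3′ on the gene's strand, at chr7:30861421-30861720 (minus) and chr19:54045009-54045308 (plus). Capitals mark TGCTGAC, the recognition core of the MAF factors, searched on both strands.
Ffar1: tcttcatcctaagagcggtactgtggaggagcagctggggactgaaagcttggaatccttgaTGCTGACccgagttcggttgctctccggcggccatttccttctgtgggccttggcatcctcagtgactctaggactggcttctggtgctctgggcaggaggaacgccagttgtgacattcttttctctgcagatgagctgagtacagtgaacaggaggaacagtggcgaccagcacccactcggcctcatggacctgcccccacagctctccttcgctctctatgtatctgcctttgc
Adra2a: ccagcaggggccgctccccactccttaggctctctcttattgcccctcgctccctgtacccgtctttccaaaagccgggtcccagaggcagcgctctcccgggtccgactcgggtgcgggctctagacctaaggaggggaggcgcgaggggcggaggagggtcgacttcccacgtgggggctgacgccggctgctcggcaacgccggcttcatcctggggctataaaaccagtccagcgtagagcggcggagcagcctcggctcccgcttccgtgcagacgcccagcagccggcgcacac

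The Ffar1 window held 1 match, which begins 188 bases before the RefSeq start. The RefSeq starts of Ffar1 and Adra2a lie inside the gene spans printed here, which come from GENCODE and begin further upstream. The same letters occurred in 1535 of 32851 promoters of that length (4.67%). The windows of Adra2a and Glp1r held none, and none of the 3 held TAATTA, found in 5.29% of promoters, or TGACGTCA, found in 1.79%. A match is only a match of letters. Mafa, the MAF factor of mature beta cells, had 110 CPM in beta cells of the intervention library, 37.0 CPM in late db/db and 30.7 CPM in early db/db, against 1065 CPM in normal control, and whether the genes are linked was not tested.

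Adra2a, the brake among the receptors, stayed close to the bulk of genes. It lies at chr19:54044151-54048982 on the plus strand, with up to 2 exons. Beta cells held 101 CPM in the intervention library, 80.0 CPM in late db/db and 67.2 CPM in early db/db, against 110 CPM in normal control. The log2 ratio to normal control was −0.46 in late db/db (−0.54 to −0.39), −0.72 in early db/db and −0.13 in the intervention library, and with all UMIs it turned to 0.14 in late db/db and to 0.29 with the intervention. Relative to the median of all genes, late db/db was at −0.08. Thinned shares were 19.96% in the intervention library, 14.1% in late db/db and 11.9% in early db/db, against 19.8% in normal control. Thinning to 3000 UMIs of all genes gave 10.1%, 9.86% and 7.58%, against 8.40%, so late db/db then lay above the control. Without thinning they were 66.8%, 81.3% and 61.8%, against 69.8%. Thinned immune cells held an Adra2a UMI in 0.300% of late db/db and 0.893% of early db/db cells, and in 0 of 85 intervention cells and 0 of 93 control cells, which at that depth allow shares of cells with a UMI of up to 3.53% and 3.23%. Without thinning 5 of 92 immune cells of the intervention library held one, and 3 of 98 in normal control.

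**Figure D3:**
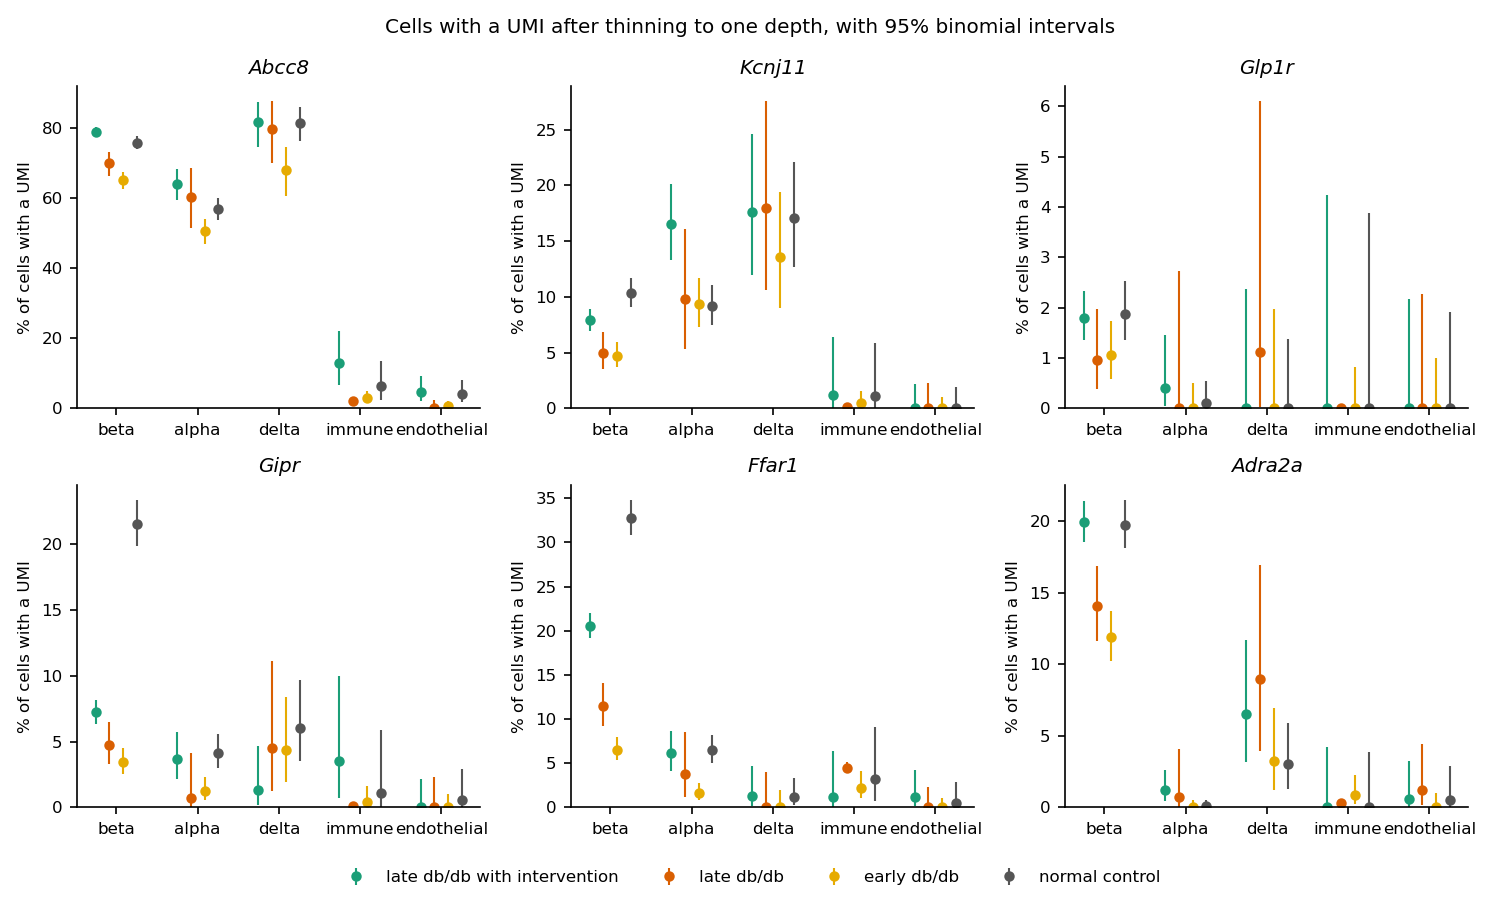
Share of cells with at least 1 UMI of each gene (percent, linear axes that start at 0) after every cell was thinned to 2000 UMIs, by class and library, with exact 95% binomial intervals. Immune and endothelial cells are shown beside the endocrine classes. For Ffar1 the immune cells are not a plain background, because B cells of late db/db held 37.4 CPM. For every gene, immune cells of the intervention library also carried beta markers, at 94209 per 1000000 UMIs, against 7240 in normal control. Beta cells of normal control hold Gipr in 21.5% and Ffar1 in 32.8% of cells, above the 3 db/db libraries, while for Glp1r no library exceeds 1.88%.

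Late db/db beta cells were deeper than the others, so levels were also read within bands of depth. Among beta cells of 10000 to 20000 UMIs outside the hormone and mitochondrial genes, Gipr was 35.03 CPM in the intervention library, 33.8 CPM in late db/db (50 cells) and 24.0 CPM in early db/db, against 126 CPM in normal control. Ffar1 in that band was 114, 82.4 and 45.3 CPM, against 193 CPM, and Kcnj11 39.9, 32.4 and 27.0 CPM, against 59.3 CPM. The control thus stayed highest for Gipr, Ffar1 and Kcnj11 at matched depth. The intervention library and late db/db came together there for Gipr. Over cells of 10000 to 30000 UMIs their log2 ratio was 0.12 for Gipr and 0.16 for Kcnj11, but 0.60 for Ffar1. Among cells of 20000 to 40000 UMIs (653 in the intervention library, 370 in late db/db), Kcnj11 was 29.0 and 29.1 CPM. Gipr was 31.2 CPM (28.6 to 34.1) and 27.3 CPM (24.4 to 30.5) in the same order, and Ffar1 93.3 and 63.3 CPM. The shallowest band of the intervention library, 766 cells of 2000 to 10000 UMIs, stood out with 1288 CPM of Abcc8, against 806 CPM in its next band. Other members were higher there too: Gipr at 53.0, Ffar1 at 161, Kcnj11 at 54.0 and Adra2a at 132 CPM. In the next band these were 35.03, 114, 39.9 and 99.7 CPM. Late db/db had 30 cells in the shallowest band.

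**Figure D4:**
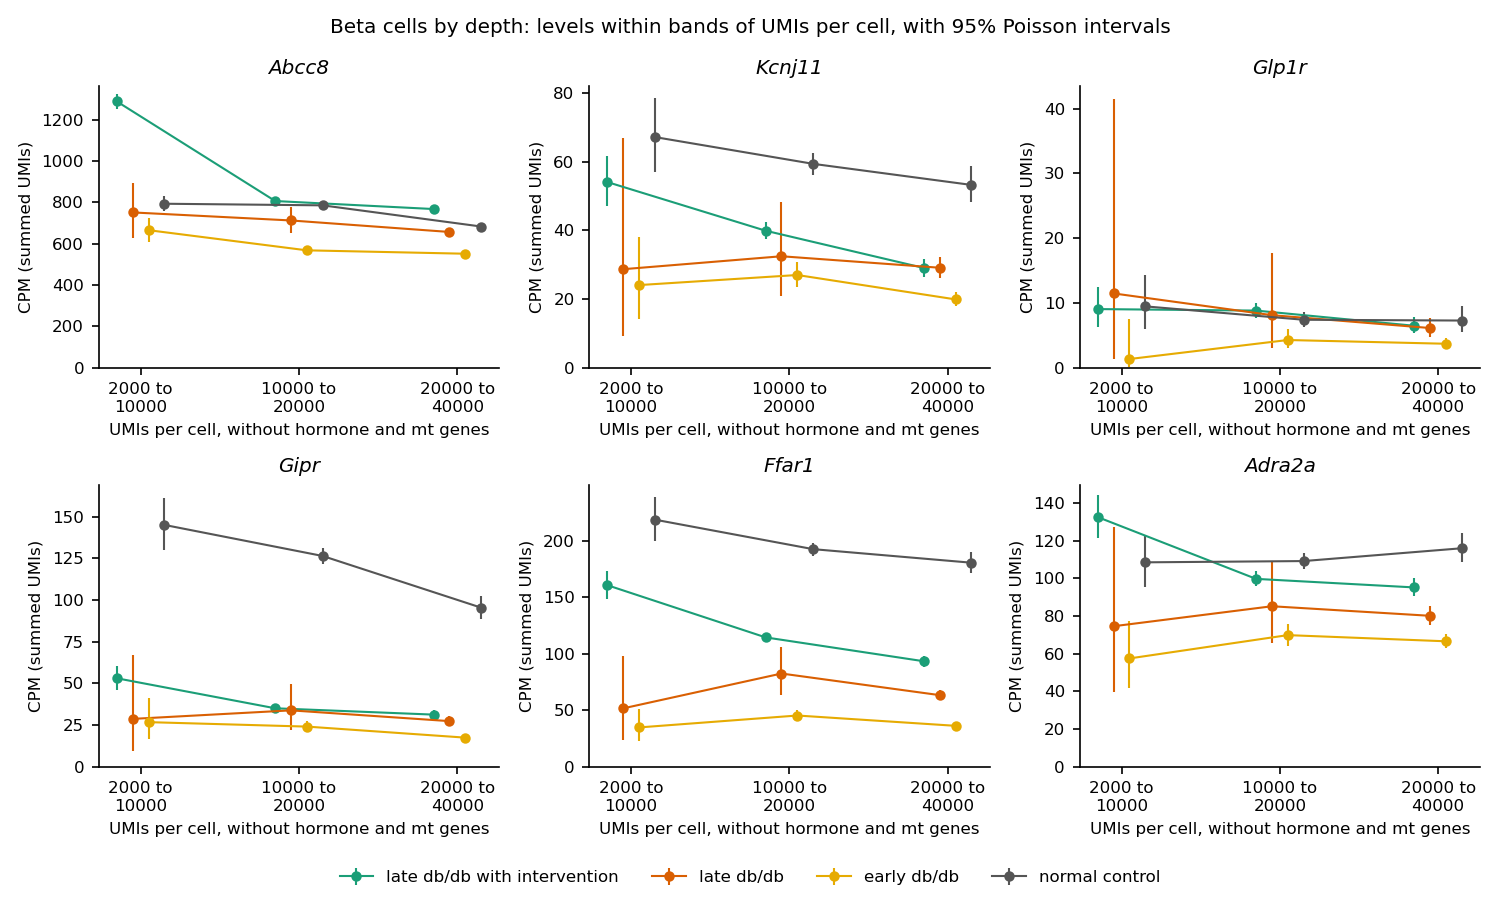
Level of each gene in beta cells (CPM of summed UMIs, axes that start at 0) within 3 bands of UMIs per cell, by library, with exact 95% Poisson intervals; lines join the bands of 1 library. Gipr, Ffar1 and Kcnj11 are highest in normal control in each band, and the shallowest band of the intervention library holds 1288 CPM of Abcc8. Of the bands shown for that library, the shallowest also holds the most Kcnj11, Gipr, Ffar1 and Adra2a.

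Beta cells of 1 library were not alike in the glucose transporter Slc2a2, which brings glucose into the mouse beta cell. At 5000 UMIs per cell, 47.2% of beta cells in the intervention library held a Slc2a2 UMI, 12.9% in late db/db and 18.0% in early db/db, against 95.6% in normal control. Ffar1 was higher in the cells with Slc2a2 than in those without it in each library: 130 against 91.1 CPM in the intervention library, 71.7 against 55.2 CPM in late db/db, 49.1 against 37.1 CPM in early db/db and 193 against 162 CPM in normal control. Gipr did so in the intervention library, at 40.7 against 29.6 CPM, and in normal control, at 122 against 85.5 CPM. In early db/db it was lower in the cells with Slc2a2, at 14.6 against 20.6 CPM. Late db/db had 20.1 against 26.8 CPM of Gipr, with counting intervals that overlapped. Cells with Slc2a2 in late db/db still carried far less Gipr and Ffar1 than control cells without it. Abcc8, Adra2a and Glp1r were also higher in the cells with Slc2a2 in each library. For Adra2a this was 111 against 89.2 CPM in the intervention library and 87.5 against 79.0 CPM in late db/db. Early db/db had 71.5 against 66.5 CPM and normal control 111 against 90.6 CPM. In late db/db the counting intervals overlapped for each of these genes. They also overlapped for Adra2a and Glp1r in early db/db and for Abcc8 and Glp1r in normal control. Kcnj11 was higher in the cells with Slc2a2 in the intervention library, at 41.2 against 32.7 CPM. Normal control had 58.4 against 61.2 CPM. There, and in late and early db/db, the counting intervals of Kcnj11 overlapped, so no direction was read.

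The genes around these receptors and the channel were described in 4 lists, over 9 to 20 genes that entered in beta cells. On the triggering list, from glucose uptake to calcium channels, 3 of 9 genes were lower and 0 higher in late db/db against normal control, and the median log2 ratio was −0.82 beside −0.39 for all genes. They were Trpm5, a calcium-activated cation channel, at −7.60, Slc2a2 at −4.48 and G6pc2, the islet glucose-6-phosphatase subunit, at −2.08. The fourth by size, the calcium channel gene Cacna1d, was at −0.96. These 3 stayed at least 2-fold lower with all UMIs and with TMM factors. In early db/db 6 of the 9 were lower (4 with all UMIs or TMM factors), and in the intervention library 2. For this and the next lists, the background of lower genes against normal control is 12.9% for late db/db, 18.8% for early db/db and 8.92% for the intervention library, and that of higher genes 4.16%, 4.89% and 4.12%. With all UMIs, over the genes that entered by that denominator, lower genes were 2.85%, 6.36% and 2.43% and higher genes 12.8%, 11.1% and 8.41%. With TMM factors lower genes were 6.05%, 8.46% and 3.88% and higher genes 6.98%, 8.75% and 6.4%. Against late db/db, where 1.24% of all genes were higher, the intervention library had 3 genes of the list higher, Trpm5 at 3.11, Slc2a2 at 2.13 and G6pc2 at 1.47, under each scaling. No member of the channel was among them.

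The cAMP list was drawn up around Glp1r and Gipr and also holds other receptors, such as Gcgr, and Dpp4. Of its 20 genes that entered, 3 were lower and 1 higher in late db/db against normal control, with a median of −0.43. These counts are near the background of 12.9% lower and 4.16% higher. Pde4d, a cAMP-degrading phosphodiesterase, was at 1.85, and its relative Pde1c was at −1.89, the arrestin Arrb2 at −1.26 and the cAMP-responsive factor Creb1 at −1.01. With all UMIs the count was 4 higher and 1 lower, where 12.8% of all genes were higher and 2.85% lower. The list thus has no direction that holds, and all genes shifted with the denominator too. Early db/db had 1 higher and 7 lower against normal control (3 and 3 with all UMIs), and the intervention library 1 higher and 4 lower (3 and 1 with all UMIs). Between the intervention library and late db/db no gene of this list was apart, but 3 were lower with all UMIs, where 0.997% of all genes were lower. The Gq list was drawn up around Ffar1 and takes in fatty acid receptors such as Ffar3 by family, not by G protein. Of its 15 genes that entered, 6 were lower and 1 higher in late db/db against normal control, with a median of −0.78. Itpr1, a calcium release channel of the endoplasmic reticulum, was at −3.03, the neighbouring receptor gene Ffar3 at −2.23 and the kinase Prkca at −1.50, while the diacylglycerol kinase Dgkb was at 2.73. With all UMIs 2 were lower and 2 higher. Early db/db had 6 lower (5 with all UMIs) and the intervention library 4 (2 with all UMIs), each with 1 higher. Against late db/db, the intervention library had 1 gene higher, Ffar3 at 1.44, which lies 1211 bases downstream of Ffar1 on the same strand.

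The Gi list was drawn up around Adra2a and also holds other receptors. Of its 11 genes that entered, 2 were higher and 1 lower in late db/db against normal control. The list median was −0.60, which came to 0.00 with all UMIs. Rgs4 at 1.74 and Rgs9 at 1.35 speed the switching-off of G proteins, as does Rgs2 at −1.10, and Gnai2, a Gi alpha subunit, was at −0.97. With all UMIs or TMM factors 3 were higher and 0 lower. Early db/db had 2 higher and 2 lower (3 and 0 with all UMIs), the intervention library 2 higher and 0 lower, and the intervention library exceeded late db/db 2-fold only in Rgs2, at 1.62. Between late and early db/db no gene of the 4 lists was 2-fold apart in beta cells. With all UMIs 1 of the cAMP list was higher, where 0.442% of all genes were higher and 0.53% lower.

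**Figure D5:**
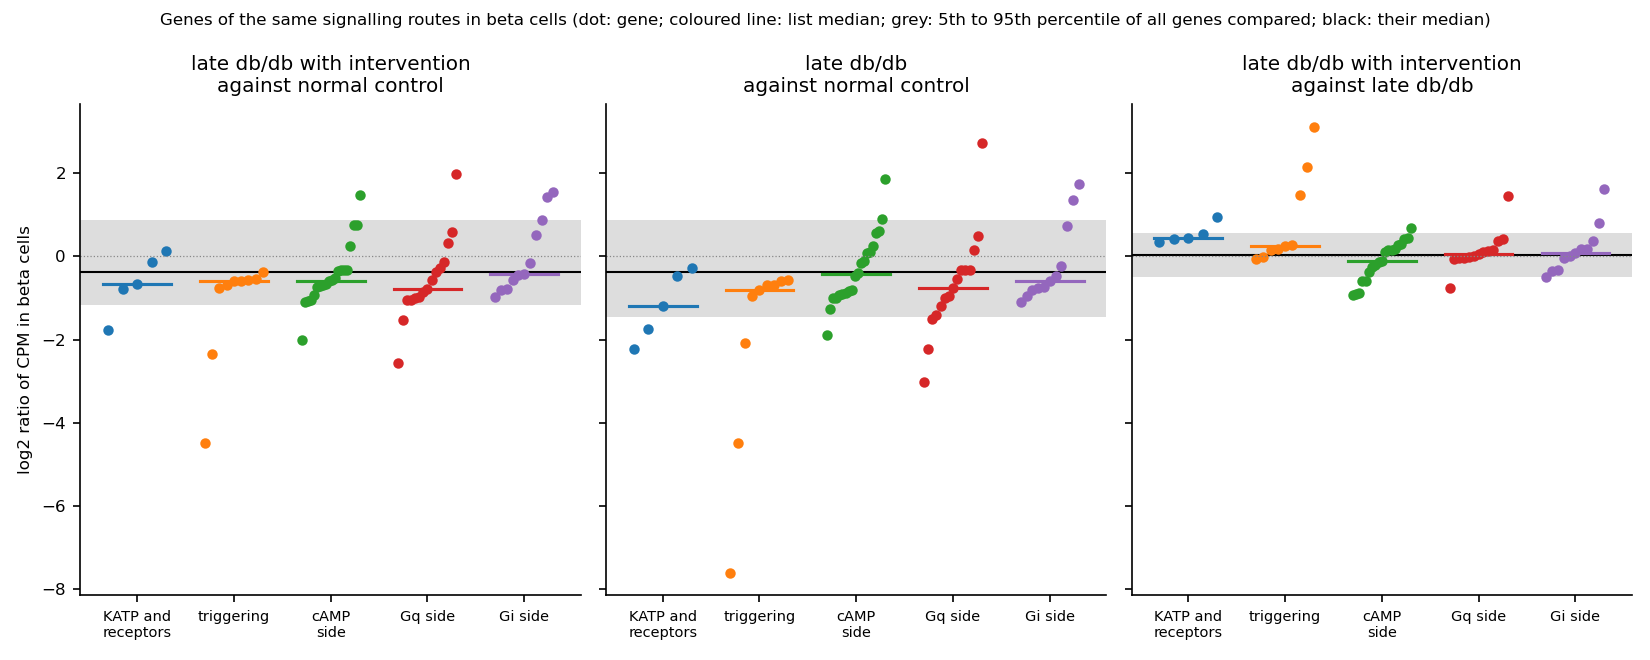
Log2 ratio of CPM in beta cells for the 5 members that entered and for the 4 lists, in 3 comparisons; each dot is a gene, coloured lines are list medians, grey bands span the 5th to 95th percentile of all genes compared and black lines their median. Trpm5, at −7.60 in late db/db against normal control, is the lowest dot, and Trpm5, Slc2a2 and G6pc2 are the 3 high dots of the triggering list in the intervention library against late db/db; the medians of the cAMP list, at −0.43, and of the Gi list, at −0.60, in late db/db against normal control turn to 0.17 and 0.00 with all UMIs.

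In alpha cells, which release glucagon and carry KATP channels too, Gipr again was lower in late and early db/db. It stood at 19.0 CPM in the intervention library, 6.15 CPM in late db/db and 7.52 CPM in early db/db, against 24.0 CPM in normal control, from 67, 14 and 50 UMIs against 293. The log2 ratio to normal control was −1.96 in late db/db (−2.85 to −1.20), −1.67 in early db/db (−2.14 to −1.24) and −0.34 in the intervention library (−0.74 to 0.05). The intervention library was 3.09-fold above late db/db, a log2 ratio of 1.63 (0.78 to 2.57), on the 14 UMIs of late db/db. Beta cell markers differed along with it, at 7792 per 1000000 UMIs of alpha cells in the intervention library, 2203 in late db/db and 1253 in early db/db, against 2050 in normal control. Insulin made up a median of 2.25% of an alpha cell's UMIs in the intervention library, 0.399% in late db/db and 0.197% in early db/db, against 1.07% in normal control. If all of that insulin came with beta cell RNA of the same library, it would bring 6.34% of the alpha cell Gipr UMIs in the intervention library, 3.03% in late db/db and 0.803% in early db/db, against 4.04% in normal control. Of the 4 members that entered, 1 was lower in late db/db against normal control, where 2.09% of all genes were lower and 1.63% higher. In early db/db 2 were lower, Gipr and Ffar1, where 3.17% of all genes were lower and 1.8% higher. None was apart in the intervention library against normal control, where 1.09% of genes were lower and 1.95% higher. Between the intervention library and late db/db 1 was higher, Gipr, where 2.08% of genes were higher and 0.862% lower. None of the 3 that entered was apart between late and early db/db, where 0.802% were lower and 1.16% higher.

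Ffar1 in alpha cells was 31.2 CPM in the intervention library, 23.7 CPM in late db/db and 12.6 CPM in early db/db, against 32.7 CPM in normal control. Early db/db was the low library, at a log2 ratio of −1.37 (−1.73 to −1.03). Kcnj11 in alpha cells followed beta cells in part: it was 83.4 CPM in the intervention library, 64.6 CPM in late db/db and 41.9 CPM in early db/db, against 58.5 CPM in normal control. The intervention library was 0.51 above the control (0.31 to 0.71) and late db/db could not be told from it (−0.12 to 0.40), while early db/db was lower, as in beta cells, at −0.48 (−0.68 to −0.28). Abcc8 was 507, 438 and 333 CPM, against 464 CPM, with early db/db lowest as in beta cells. Glp1r had 3 UMIs in alpha cells of the intervention library, 0 in late db/db and 1 in early db/db, against 2 in normal control. Adra2a had 15, 2 and 8 UMIs, against 23, and if every insulin UMI in alpha cells came with beta cell RNA of the same library, 80.7% of those UMIs would be accounted for in the intervention library, 65.6% in late db/db and 17.3% in early db/db, against 47.1% in normal control. The pancreatic polypeptide and peptide YY genes, marks of gamma cells, made up 87930 per 1000000 UMIs in alpha cells of the intervention library, 107443 in late db/db and 106755 in early db/db, against 24885 in normal control, so the alpha cells also differed in this respect. Acinar markers in alpha cells stood at 888 per 1000000 UMIs in early db/db, and at 84.2 in the intervention library, 105 in late db/db and 48.4 in normal control. The part of either in these levels was not tested.

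Delta cells, the somatostatin cells, gave smaller counts. Gipr was 11.3 CPM in the intervention library, 13.9 CPM in late db/db and 15.8 CPM in early db/db, against 32.9 CPM in normal control, from 12, 18 and 21 UMIs against 85. All 3 db/db libraries were lower, with log2 ratios of −1.54 (−2.55 to −0.66), −1.24 (−2.06 to −0.50) and −1.05 (−1.82 to −0.35). Adra2a ran the other way: 22.6 CPM in the intervention library, 36.3 CPM in late db/db and 27.9 CPM in early db/db, against 15.5 CPM in normal control. The log2 ratio was 1.23 in late db/db (0.59 to 1.88), 0.85 in early db/db (0.17 to 1.53) and 0.54 in the intervention library, where the interval (−0.25 to 1.31) includes 0. Stricter class limits left neither Gipr nor Adra2a 2-fold apart in late db/db. Of the 4 members that entered, 1 was lower and 1 higher in late db/db against normal control, where 2.52% of all genes were lower and 1.49% higher. In early db/db 1 was lower, where 3.55% of genes were lower and 1.85% higher, and in the intervention library 1 was lower, where 2.31% were lower and 1.33% higher. None of the 3 that entered was apart between late and early db/db (0.95% lower, 0.866% higher) or between the intervention library and late db/db (1.32% lower, 0.871% higher).

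The channel genes differed less in delta cells. Abcc8 was 877 CPM in the intervention library, 837 CPM in late db/db and 675 CPM in early db/db, against 797 CPM in normal control. Kcnj11 was 78.9, 71.0 and 67.9 CPM, against 85.4 CPM, and the 3 counting intervals of its ratio to the control all included 0. Thinned shares of delta cells with Kcnj11 lay between 13.6% in early db/db and 18.0% in late db/db, with intervals that overlap in all 4 libraries. Ffar1 had 2 UMIs in delta cells of the intervention library and 0 in late and early db/db, against 12 in normal control. With a floor of 3 UMIs per library, late db/db was at least 2.003-fold lower than normal control and early db/db at least 2.05-fold lower. That bound takes the 12 control UMIs as exact, and the counting interval of the log2 ratio reaches up to −0.48 in late db/db and −0.51 in early db/db. If all insulin in delta cells came with beta cell RNA of the same library, it would bring 41.6% of the control's Ffar1 UMIs. That would leave 2.71 CPM in normal control, beside floors of 2.32 CPM in late db/db and 2.26 CPM in early db/db. In the intervention library it would bring 194% of the UMIs counted. The part of such RNA in the difference was not tested. Glp1r had 0, 2 and 3 UMIs, against 1. Acinar markers in delta cells stood at 1077 per 1000000 UMIs in early db/db, and at 188 in the intervention library, 418 in late db/db and 79.2 in normal control.

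Set against the other classes of the same library, beta cells stood highest for Adra2a and Ffar1. Adra2a was 23.7-fold higher in beta than in alpha cells of the intervention library, 91.1-fold in late db/db, where alpha cells held 2 UMIs (25.2 to 753), 55.9-fold in early db/db and 58.6-fold in normal control. Against delta cells Adra2a was only 4.47-fold higher in the intervention library, 2.21-fold in late db/db and 2.41-fold in early db/db, against 7.14-fold in normal control, and with all UMIs 2.72-fold, 1.42-fold and 1.40-fold, against 2.95-fold. Ffar1 was 3.54-fold, 2.41-fold, 3.09-fold and 5.86-fold higher than in alpha cells in the same order, and against delta cells 58.8-fold in the intervention library (16.3 to 485), at least 24.7-fold in late db/db, at least 17.2-fold in early db/db and 41.3-fold in normal control. At 2-fold or more, 11.8% of all genes were higher in beta than in alpha cells in the intervention library, 13% in late db/db and 14.2% in early db/db, against 15.4% in normal control. Against delta cells these shares were 7.07%, 7.18% and 7.52%, against 8.66%. Gipr was 1.86-fold higher in beta than in alpha cells in the intervention library, 4.21-fold in late db/db and 2.59-fold in early db/db, against 5.02-fold in normal control. Against delta cells Gipr was 3.13-fold, 1.86-fold and 1.23-fold higher, against 3.67-fold, and in early db/db this turned to 0.713-fold with all UMIs.

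Kcnj11 was lower in beta than in alpha cells in the 3 db/db libraries, and level with them in normal control. In beta cells it was 0.441-fold its alpha cell level in the intervention library, 0.394-fold in late db/db and 0.518-fold in early db/db, against 1.002-fold in normal control (0.919 to 1.09), which is 0.473-fold with all UMIs. Against delta cells it was 0.466-fold, 0.358-fold and 0.320-fold, against 0.686-fold. At least 2-fold lower in beta than in alpha cells were 8.23% of all genes in the intervention library, 8.10% in late db/db and 7.97% in early db/db, against 5.34% in normal control, and against delta cells 13%, 14.9% and 15.9%, against 8.50%. Abcc8 was 1.64-fold higher in beta than in alpha cells of the intervention library, 1.42-fold in late db/db and 1.68-fold in early db/db, against 1.63-fold in normal control, which turns to 0.771-fold with all UMIs. In delta cells it was at or above the beta cell level in each library, with beta cells at 0.9497-fold, 0.745-fold and 0.828-fold, against 0.952-fold.

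Each gene's pattern over the 12 sums of 3 classes and 4 libraries was also compared with that of 5134 genes by Pearson's r of log2(CPM + 1). The 12 sums share libraries and depth, so r is a description of likeness. The nearest to Abcc8 were Acp2 (0.969), Lgi1 (0.965) and Uaca (0.963), and the nearest to Kcnj11 were Atp2b4 (0.980), Kantr (0.977) and Prr12 (0.976). Abcc8 and Kcnj11 themselves had an r of 0.21. Nearest to Glp1r were Mettl7a1 (0.932), Cgrrf1 (0.932) and Slc35b2 (0.930). Glp1r itself had at most 3 UMIs in any alpha or delta sum. Its highest level, 7.99 CPM, was under the 50 CPM asked of the genes ranked, so little was read from its r. Gipr lay nearest to Ret (0.974), the receptor tyrosine kinase of GDNF family ligands, with Pcx (0.945), the gene of pyruvate carboxylase, and Dynll2 (0.942) behind it. Ffar1 lay nearest to Tmod2 (0.970), Il6ra (0.967) and Hbs1l (0.966), and Adra2a to Pcsk1 (0.986), the proinsulin-cleaving convertase, Dusp23 (0.981) and Slc25a28 (0.981).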

How the data were processed

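The deposited matrices hold UMI counts per gene and cell barcode, not normalized, written by Cell Ranger software 3.0.0 per the file headers. The library kit was 10x Genomics 3′ v3, per the labels' protocols, and the submitters' processing notes name mm10, CASAVA 1.8, Cell Ranger and Seurat, without a role for Seurat. Positions came from GENCODE M21 (GRCm38) by gene identifier, matched for 30766 of 30905 identifiers, and promoters from RefSeq. The members, the lists and the class limits were chosen with earlier results of these data known.

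Cells were kept with at least 1000 UMIs, 500 genes and at most 20% mitochondrial UMIs, which left 4906 cells in the intervention library, 5983 in the late db/db library, 4616 in early db/db and 4458 in normal control. Doublets were scored with Scrublet (scanpy 1.11.5), and the highest scores were removed at 0.8% per 1000 cells, because the automatic threshold marked only 2 of 5115 cells in the intervention library. Beta cells had at least 20% Ins1 and Ins2, alpha cells 10% Gcg and delta cells 10% Sst, with limits on the other hormones. These limits left 157 of 214 delta cells over the threshold in the intervention library, 91 of 111 in late db/db and 191 of 267 in early db/db, against 271 of 416 in normal control. Immune and endothelial cells were named by at least 5 marker UMIs. Counts were summed per class and library (scipy 1.17.1): levels have exact Poisson 95% intervals, ratios exact conditional binomial intervals and shares exact Clopper-Pearson intervals. A count of 0 was given a floor of 3 UMIs. Thinning left out 116 beta cells under 2000 UMIs in the intervention library, 20 in late db/db and 102 in early db/db, against 57 in normal control. The genes named beside the members were the 3 of highest r per member and, per list, the 4 largest differences in late db/db against normal control in beta cells. Alternatives changed the denominator (all UMIs, or TMM factors from edgeR 4.0.16), the filters on genes and cells, the class limits, the weight per cell and the subtraction of free RNA. A band of cells of 10000 to 30000 UMIs was added after seeing the data. The ratio calculation was tested on simulated data. No replicate could be left out, because each group has 1 library.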

Additional observations from a re-analysis of the deposited data

Results flagged for a closer look

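For 2 members, cell classes of the same pair of libraries lay on opposite sides of the median of all genes, each with its counting interval clear of that median. Neither difference was tested, since each group has 1 library. Adra2a in early db/db against normal control was at −0.34 in beta cells and at 0.91 in delta cells on the log2 scale relative to the median of all genes, a difference of −1.24. Kcnj11 in the intervention library against normal control was at −0.30 in beta cells and at 0.53 in alpha cells on the same scale, a difference of −0.83. In late db/db against normal control, Adra2a was at −0.08 in beta cells and 1.28 in delta cells, and Kcnj11 at −0.82 in beta cells and 0.22 in alpha cells, but the interval of the beta cell value of Adra2a and that of the alpha cell value of Kcnj11 include the median.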

How the results depend on the processing

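No paired analysis was possible because each group has 1 library, and for the same reason no replicate could be left out. In beta cells the counts of members 2-fold apart from normal control, 3 for late and for early db/db and 1 for the intervention library, stayed within 1.5 times under every alternative run. With all UMIs or TMM factors late db/db had 2, where 15.6% and 13% of all genes were apart. Between the intervention library and late db/db the count of 0 became 1, Ffar1, with stricter class limits, with equal weight per cell and with immune and endothelial CPM subtracted, where 1.97%, 2.41% and 41% of all genes were apart. Alpha and delta cell counts are small and moved more. With at least 50 CPM asked for, the alpha cell counts of late db/db (1) and early db/db (2) against normal control and of the intervention library against late db/db (1) became 0, as did the delta cell counts of late db/db (2), early db/db (1) and the intervention library (1) against normal control. In these comparisons 1.67% to 4.38% of all genes were then apart. Without a filter, where 11.6% to 15% of all genes were apart, alpha cells had 2 apart both in late db/db and in the library with intervention against normal control and 2 between the intervention library and late db/db, and delta cells 2 in early db/db and 2 in the intervention library against normal control. With immune and endothelial CPM subtracted, 35.7% to 50.6% of all genes were apart in the comparisons that follow, so nothing was read from the members' counts: alpha cells had 2 in late db/db against normal control, 1 between late and early db/db and 2 between the intervention library and late db/db, and delta cells 2 in early db/db against normal control and 1 between the intervention library and late db/db. With all UMIs alpha cells had 1 between late and early db/db, where 1.78% of all genes were apart. Stricter class limits left delta cells 0 in each db/db library against normal control, where 2.42% to 4.53% of all genes were apart. In early db/db looser limits left delta cells 0 (5.53% of all genes apart), and cells of at least 10000 UMIs gave 2 (6.43% apart). In the band of 10000 to 30000 UMIs, where 3.61% to 15.4% of all genes were apart, alpha cells had 0 between the intervention library and late db/db, and delta cells 1 for late db/db and 0 for the intervention library against normal control and 1 between late and early db/db. The causes were not tested. Among beta cell counts of all genes, late db/db against normal control had 391 higher and 1212 lower, 758 and 169 with all UMIs, 640 and 555 with TMM factors, 2066 and 2745 without a filter, and 405 and 782 in the band. Higher genes were 20.6%, 63.7% and 50.9% of those apart in early db/db and 31.6%, 77.6% and 62.2% in the intervention library against normal control (main denominator, all UMIs, TMM), and 64.1%, 32.9% and 57.2% between the intervention library and late db/db. Of the member ratios under alternatives, 952 moved by less than their counting interval and 135 by more. Of the shares of cells with a UMI, 94 moved and 50 did not when the thinning was changed or left out. Depth limits Glp1r in all classes and Ffar1 and Adra2a in delta and alpha cells.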

Other observations

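Outside the endocrine cells, Ffar1 was counted in B cells. In late db/db, B cells held 346 Ffar1 UMIs in 1907 cells, or 37.4 CPM (33.6 to 41.6), against 3 UMIs in 2051 T cells, or 0.207 CPM, and 54 UMIs in 152 macrophages, or 22.7 CPM. Early db/db B cells held 29 UMIs in 260 cells, or 19.9 CPM. The intervention library and normal control had 3 and 9 B cells, too few to read. Cd22, a B cell surface receptor gene that ends 3837 bases upstream of Ffar1 on the same strand, had 1614 UMIs in the same late db/db B cells and 17 in T cells. Whether Ffar1 UMIs in B cells come from transcripts that run on from Cd22 was not tested. Abcc8 was counted in macrophages at 156 CPM in the intervention library, 152 CPM in late db/db and 107 CPM in early db/db, against 75.5 CPM in normal control. In late db/db, B cells had 8.54 CPM and T cells 8.42 CPM of Abcc8. Insulin made up a median of 4.53% of the UMIs of immune cells in the intervention library. It was 0.804% in late db/db and 0.358% in early db/db, against 1.86% in normal control. Beta markers in immune cells stood at 94209 per 1000000 UMIs in the intervention library, beside 124391 in its beta cells. In immune cells of late db/db they stood at 7258 and of early db/db at 25654, against 7240 in normal control. The part of insulin or of other beta cell RNA in these levels was not tested.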
